A study of Mus musculus with 36 samples.

Results

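Trimethylation of lysine 36 of histone H3 (H3K36me3) was described from 4 lists of chromatin immunoprecipitation sequencing (ChIP-seq) peaks made from mouse hippocampus. The 4 lists were taken by the mark named in their titles, out of 28 peak lists of 7 histone marks in a series of 36 samples that also holds RNA and whole cell extract samples. CK-p25 mice are double-transgenic animals that make p25, a shortened and more stable form of the Cdk5 activator p35, once it is induced. In this line p25 is known to be driven in forebrain neurons by the promoter of CaMKII and to be followed by loss of neurons. The groups were CKp25_2wk, CK-p25 animals 2 weeks after induction, CK_2wk, their control littermates at 2 weeks, CKp25_6wk, CK-p25 animals at 6 weeks, and CK_6wk, their control littermates at 6 weeks. All were females given as 3 months old, an age the labels do not tie to induction or to collection, and how the CK controls were made is not given further. Each group had 1 H3K36me3 list, called against the whole cell extract of the same group, so differences between lists have no replicate check, and time cannot be told apart from age or processing run. The antibody was ab9050, of which the labels name more than 1 lot without tying a lot to a sample, and pooling of animals is not stated.

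H3K36me3 is laid down in the body of transcribed genes by Setd2, which travels with elongating RNA polymerase II, and it usually forms broad domains that grow denser toward the 3′ end of a gene. It is read by proteins with PWWP, chromo or Tudor domains that take part in DNA methylation, splicing, mismatch repair and the silencing of spurious starts inside genes. In a mixed tissue such as hippocampus the mark over a gene adds up the cells that transcribe it, so fewer cells of a type and less of the mark per cell cannot be told apart.

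The RNA of the same groups, 3 libraries each with 5029996 to 6450140 gene counts, gave the tissue context. Prox1, C1ql2, Spink8, Fibcd1 and Zbtb20, which are enriched in hippocampal neurons, were detected in all 12 libraries. Cdk5r1, the mouse gene of p35 and p25, was lower in CKp25, against the direction of the induction the labels give: it averaged 152.9 ± 4.81 CPM in CKp25_2wk and 193.9 ± 4.49 CPM in CK_2wk, and 128.6 ± 14.6 CPM in CKp25_6wk and 182.9 ± 4.06 CPM in CK_6wk (SD, n = 3 libraries each, edgeR adjusted p = 0.00333 and 7.37e-05). CPM are counts scaled to a common library total. Whether counts of this gene include the p25 transgene is not stated, so the groups are called as labelled. The summed level of 8 neuron genes (Rbfox3, Snap25, Syt1, Slc17a7, Gad1, Camk2a, Stmn2 and Nrgn) was 3707 to 4076 CPM in CKp25_2wk and 5108 to 5457 CPM in CK_2wk, and 2880 to 3776 CPM in CKp25_6wk and 4908 to 5364 CPM in CK_6wk. Of these, Gad1 changed little, by log2 −0.09 and 0.08 (edgeR adjusted p = 0.574 and 0.554). The other 7 were lower at both times (edgeR adjusted p under 0.05), where 7.99% and 15.2% of all genes were. The summed level of 10 microglia genes, C1qa and Csf1r among them, was 1014 to 1379 CPM in CKp25_2wk and 258 to 280 CPM in CK_2wk, and 1233 to 1721 CPM in CKp25_6wk and 242 to 271 CPM in CK_6wk. The summed level of 5 astrocyte genes, Gfap and Aqp4 among them, was 2904 to 3157 CPM in CKp25_2wk and 982 to 1015 CPM in CK_2wk, and 3567 to 5421 CPM in CKp25_6wk and 962 to 1036 CPM in CK_6wk. Gfap alone averaged 1737 CPM in CKp25_2wk and 202 CPM in CK_2wk. Gja1 did not pass at 2 weeks (log2 change 0.16, edgeR adjusted p = 0.21). The other 4 were higher then, and all 5 at 6 weeks, where 11.6% and 18.1% of all genes were. The summed level of 5 oligodendrocyte genes, Mbp and Mog among them, was 2056 to 2539 CPM in CKp25_2wk and 2036 to 2234 CPM in CK_2wk, and 3271 to 4010 CPM in CKp25_6wk and 2174 to 2820 CPM in CK_6wk. The summed level of 6 cell cycle genes, Mki67 and Top2a among them, was 199 to 349 CPM in CKp25_2wk and 8.80 to 9.75 CPM in CK_2wk, and 54.2 to 75.4 CPM in CKp25_6wk and 8.54 to 10.9 CPM in CK_6wk. These sums did not overlap between genotypes except for oligodendrocyte genes at 2 weeks, and no marker of neurons, microglia, astrocytes or oligodendrocytes was at 0 in any library, while 3 of the 6 cell cycle genes were at 0 in at least 1. Their part in the H3K36me3 differences below was not tested.

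As deposited, the CKp25 lists held more H3K36me3 peaks, and covered more of the genome, than the CK lists of the same time, but the direction for peak number at 2 weeks depended on the peaks kept. The autosomes carried 199210 peaks in CKp25_2wk and 184045 in CK_2wk, a ratio of 1.08, and 203256 in CKp25_6wk and 190957 in CK_6wk, a ratio of 1.06. The 95% binomial intervals of these ratios were 1.08 to 1.09 and 1.06 to 1.07, and they cover counting error only. Between the control lists, CK_6wk over CK_2wk, the ratio was 1.04, with a binomial interval of 1.03 to 1.04. Among peaks of at least 3-fold enrichment the peak number ratio turned to 0.943 at 2 weeks, and among peaks with summits at least 3 times the background to 0.921, while the covered length ratio was 1.03 and 1.02. The X chromosome added 3353 peaks in CKp25_2wk and 3123 in CK_2wk, and 3156 in CKp25_6wk and 3082 in CK_6wk.

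Autosomal H3K36me3 peaks covered 181 megabases (Mb) in CKp25_2wk and 167 Mb in CK_2wk, a ratio of 1.09, and 168 Mb in CKp25_6wk and 157 Mb in CK_6wk, a ratio of 1.07. That was 7.53% of the autosomal span in CKp25_2wk and 6.94% in CK_2wk, and 7.00% in CKp25_6wk and 6.52% in CK_6wk. The mean peak width was 907 bases in CKp25_2wk and 905 bases in CK_2wk, and 826 bases in CKp25_6wk and 820 bases in CK_6wk, a ratio near 1 at each time. Covered length of the control lists moved the other way from their peak number, with a CK_6wk over CK_2wk ratio of 0.940. Among peaks of at least 3-fold enrichment both were lower in CK_6wk, with ratios of 0.910 for peak number and 0.883 for covered length.

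**Figure D1:**
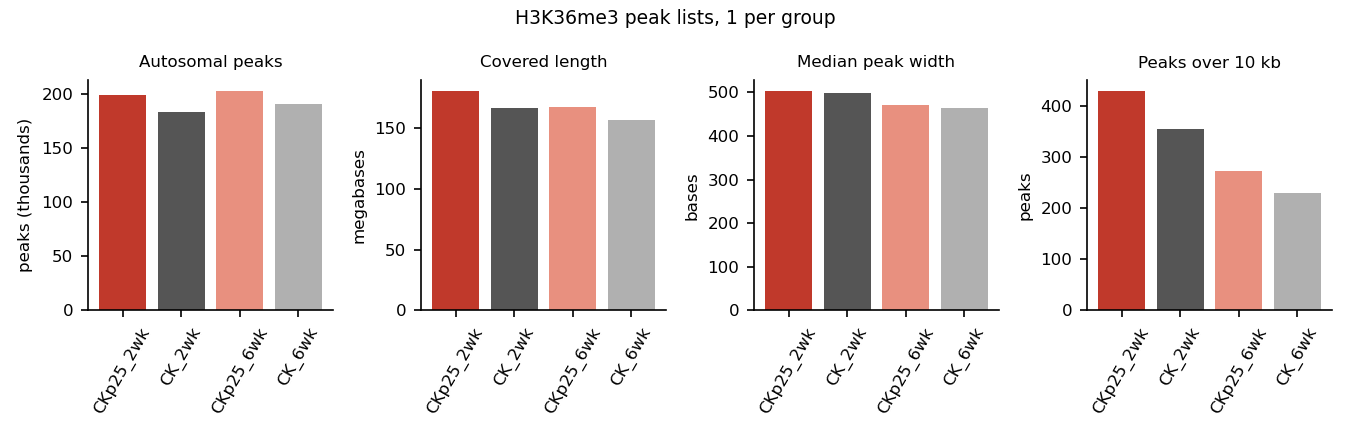
Autosomal H3K36me3 peaks (in units of 1000), covered length (megabases), median peak width (bases) and number of peaks over 10 kb, with 1 bar for each of the 4 lists. Both CKp25 lists stand above the CK list of their time in all 4 panels, and the 2 lists of 6 weeks stand below those of 2 weeks in width and in wide peaks.

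The median width was 503 bases in CKp25_2wk and 499 bases in CK_2wk, and 470 bases in CKp25_6wk and 463 bases in CK_6wk. The narrowest peak differed in the same order, with 234 bases in CKp25_2wk, 230 in CK_2wk, 224 in CKp25_6wk and 220 in CK_6wk. The part of this lower limit in the width differences was not tested. The CKp25 over CK ratio of the median was 1.01 at 2 weeks and 1.02 at 6 weeks, against a CK_6wk over CK_2wk ratio of 0.928. Which of these is larger depended on the peaks kept: with the same number of peaks in each list the genotype ratios were 1.09 and 1.07 and the ratio of the control lists 0.960. Most peaks were short, but the wide ones held most of the covered bases: peaks over 1 kb made up 24.0% of the peaks and 61.5% of the bases in CKp25_2wk, and 21.3% of the peaks and 57.7% of the bases in CK_6wk. Peaks over 10 kb numbered 430 in CKp25_2wk and 355 in CK_2wk, and 274 in CKp25_6wk and 231 in CK_6wk. The widest single peak measured 35081 bases in CKp25_2wk and 28159 bases in CK_2wk, and 31937 bases in CKp25_6wk and 28293 bases in CK_6wk.

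Strength is given within each list, as the fold enrichment over extract at the peak summit and the −log10 of its p-value, both the authors' own deposited values. The median fold was 2.95 in CKp25_2wk, 3.09 in CK_2wk, 2.93 in CKp25_6wk and 2.97 in CK_6wk, and the median −log10 p was 6.75, 6.97, 6.69 and 6.62 in the same lists. Within a list, strong peaks were wide: the tenth of the CKp25_2wk peaks with the highest −log10 p had a median width of 2461 bases and the tenth with the lowest had 275 bases, and the other lists gave 2163 to 2499.5 bases and 261 to 272 bases. In 3 of the 4 lists the single strongest or next strongest peak lay at the same place on chromosome 11 (mm9), chr11:68913680-68920234 in CKp25_2wk with 11.3-fold enrichment, chr11:68913863-68923826 in CK_2wk with 11.3-fold, and chr11:68915179-68920190 in CKp25_6wk with 10.04-fold.

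The number of fragments stacked at each summit could be read back from the deposited fold and p-value, since MACS2, the peak caller named in the submitters' processing notes, derives both from that number and its background. For 100% of the peaks a whole number of fragments returned the deposited −log10 p within 0.001. The median summit held 25 fragments in CKp25_2wk, 25 in CK_2wk, 25 in CKp25_6wk and 24 in CK_6wk. The lowest background was 7.46 fragments per base in CKp25_2wk and 6.99 in CK_2wk, and 7.25 in CKp25_6wk and 7.07 in CK_6wk. It was thus higher in CKp25 by ratios of 1.07 at 2 weeks and 1.03 at 6 weeks, as peak number was. In CKp25_6wk over CKp25_2wk the background ratio was 0.972, the peak number ratio 1.02 and the covered length ratio 0.929. In CK_6wk over CK_2wk these ratios were 1.01, 1.04 and 0.940. The part of the background in the genotype differences was not tested.

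H3K36me3 peaks lay in long runs in every list. Joined over gaps of at most 3 kb, they formed 31223 clusters in CKp25_2wk and 29450 in CK_2wk, and 30483 in CKp25_6wk and 29435 in CK_6wk. Clusters of more than 1 peak held 94.7% of the peaks in CKp25_2wk and 94.6% in CK_2wk, and 94.9% in CKp25_6wk and 94.7% in CK_6wk. Clusters of at least 50 kb numbered 933 in CKp25_2wk and 766 in CK_2wk, a ratio of 1.22, and 813 in CKp25_6wk and 705 in CK_6wk, a ratio of 1.15. The CK_6wk over CK_2wk ratio of these long clusters was 0.920. Clusters of at least 100 kb numbered 81 in CKp25_2wk and 61 in CK_2wk, and 74 in CKp25_6wk and 61 in CK_6wk.

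The longest H3K36me3 clusters were shared by all groups. One ran over chr5:151108610-151301202 in CKp25_2wk, for 193 kb, and over chr5:151126745-151300605 in CK_2wk, for 174 kb, and the same place gave 162 kb in CKp25_6wk and 159 kb in CK_6wk. Peaks covered 71.9% of the CKp25_2wk extent of that cluster in CKp25_2wk and 71.6% in CK_2wk, and 68.8% in CKp25_6wk and 69.7% in CK_6wk. On chromosome 4 the cluster chr4:144617258-144781435 of CKp25_2wk, 164 kb long, was matched by clusters of 163 kb in CK_2wk, 163 kb in CKp25_6wk and 165 kb in CK_6wk. On chromosome 6 a cluster of 161 kb, chr6:31003748-31165015 in CKp25_6wk, was also among the 3 longest of CK_2wk and CK_6wk. The second longest cluster of CKp25_2wk, chr2:33044057-33209130, was 165 kb long and was not among the 3 longest of the other lists, and peaks covered 61.0% of it in CKp25_2wk and 55.8% in CK_2wk, and 51.4% in CKp25_6wk and 50.4% in CK_6wk.

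The surplus of H3K36me3 in CKp25 was spread over all 19 autosomes. Chromosome 11 had the highest covered share, 12.1% in CKp25_2wk and 11.2% in CK_2wk, and 11.3% in CKp25_6wk and 10.6% in CK_6wk. Chromosome 3 had the lowest, 4.92% in CKp25_2wk and 4.60% in CK_2wk, and 4.60% in CKp25_6wk and 4.34% in CK_6wk. The CKp25 over CK ratio was above 1 on 19 of 19 autosomes at both times, and ran from 1.07 on chromosome 13 to 1.10 on chromosome 6 at 2 weeks and from 1.06 on chromosome 12 to 1.09 on chromosome 18 at 6 weeks. The CK_6wk over CK_2wk ratio was below 1 on 19 of 19 autosomes, from 0.927 on chromosome 6 to 0.949 on chromosome 9. Divided by the ratio of the whole list, the autosomes lay between 0.981 and 1.01 at 2 weeks and between 0.985 and 1.02 at 6 weeks.

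**Figure D2:**
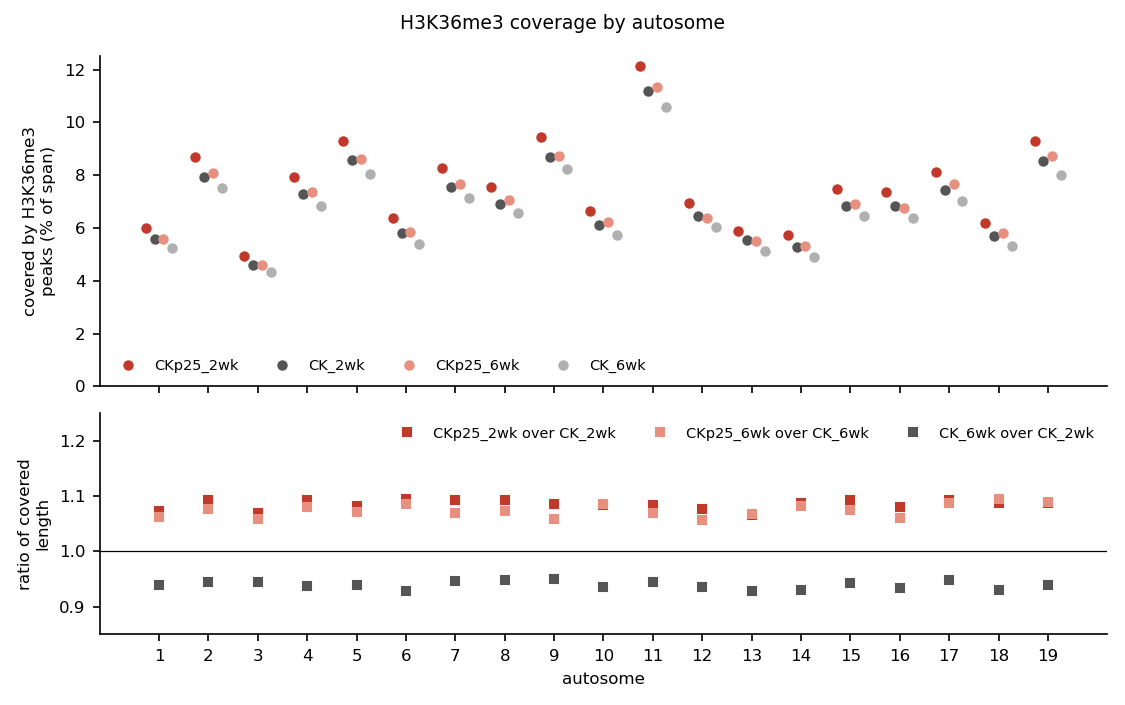
Share of each autosome's span covered by H3K36me3 peaks (%, upper panel, 1 point per list) and the ratio of covered length between lists (lower panel). The genotype ratios lie above 1 and the ratio of the control lists below 1 on 19 of 19 autosomes, and chromosome 11 is the most and chromosome 3 the least covered.

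Local differences were sought in autosomal windows of 100 kb. Of 24025 windows, 6879 had a mean covered share of at least 5% over the 4 lists and were compared after scaling each list to the same total covered length, with 1% added to each share before the ratio. A window was called at 2-fold, with no test, since each group had 1 list. At 2 weeks 58 windows were at least 2-fold higher in CKp25, 0.843% of those compared, and 1 was at least 2-fold lower, 0.0145%. At 6 weeks 103 were higher, 1.5%, and 74 were lower, 1.08%. The balance of directions at 6 weeks turned with the same number of peaks in each list, to 82 higher and 91 lower. Between the control lists, CK_6wk over CK_2wk, 0 windows were higher, 0%, and 4 were lower, 0.0581%. Within CKp25, CKp25_6wk over CKp25_2wk, 4 windows were higher, 0.0581%, and 65 were lower, 0.945%.

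Windows with more H3K36me3 in CKp25 recurred between the times. Of them, 38 passed 2-fold at both, which is 65.5% of the 58 of 2 weeks and 36.9% of the 103 of 6 weeks. On the log2 scale 100 of the 103 were above 0 at 2 weeks, where 3012 of all 6879 windows were. With the same number of peaks in each list, 22 windows passed at both times. Windows with little CK coverage entered the comparison through their CKp25 coverage, so the recurrence is not independent of the filter on the mean share. The 38 windows lay at 37 separate places on 16 autosomes, and their covered share had a median of 13.7% in CKp25_2wk and 4.76% in CK_2wk, and of 16.2% in CKp25_6wk and 3.48% in CK_6wk. Their median log2 ratio was 1.36 at 2 weeks and 1.65 at 6 weeks, against −0.02 at both times over all 6879 windows. Windows just inside the 2-fold limit stood at 2.02 at 2 weeks and 2.003 at 6 weeks, and those just outside at 1.99 and 1.9998.

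The window with the largest mean ratio was chr8:64400001-64500000, where H3K36me3 peaks covered 11.9% in CKp25_2wk and 0% in CK_2wk, and 23.8% in CKp25_6wk and 0% in CK_6wk. Around it, in the 500 kb of chr8:64200001-64700000, a stretch chosen after its values were seen, CKp25_2wk had 35 peaks covering 14.4 kb and CK_2wk had 0, and CKp25_6wk had 59 peaks covering 28.3 kb and CK_6wk had 0. The CKp25 peaks ran over chr8:64414619-64515303 at 2 weeks and chr8:64414152-64517856 at 6 weeks, with a highest summit of 29 fragments at 2 weeks and 37 at 6 weeks. The block is thus made of many short peaks of modest height that fill about the same stretch in both CKp25 lists and are listed in neither CK list.

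The other named windows of largest mean ratio showed the same contrast in covered share. At chr2:62400001-62500000 the covered share was 13.6% in CKp25_2wk and 0% in CK_2wk, and 15.4% in CKp25_6wk and 0.223% in CK_6wk. At chr3:142200001-142300000 it was 11.7% in CKp25_2wk and 0% in CK_2wk, and 16.7% in CKp25_6wk and 0.294% in CK_6wk. At chr6:121200001-121300000 it was 13.3% in CKp25_2wk and 0.282% in CK_2wk, and 13.4% in CKp25_6wk and 0.289% in CK_6wk. At chr6:87400001-87500000 it was 7.67% in CKp25_2wk and 0.276% in CK_2wk, and 12.3% in CKp25_6wk and 0% in CK_6wk. In all 5 windows the CK lists were at or near no coverage at both times. Such windows reached the mean covered share of 5% through their CKp25 coverage, so their common form is partly set by that filter. Coordinates are those of mm9, and no annotation of that build was used here, so no gene is named at a window.

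**Figure D3:**
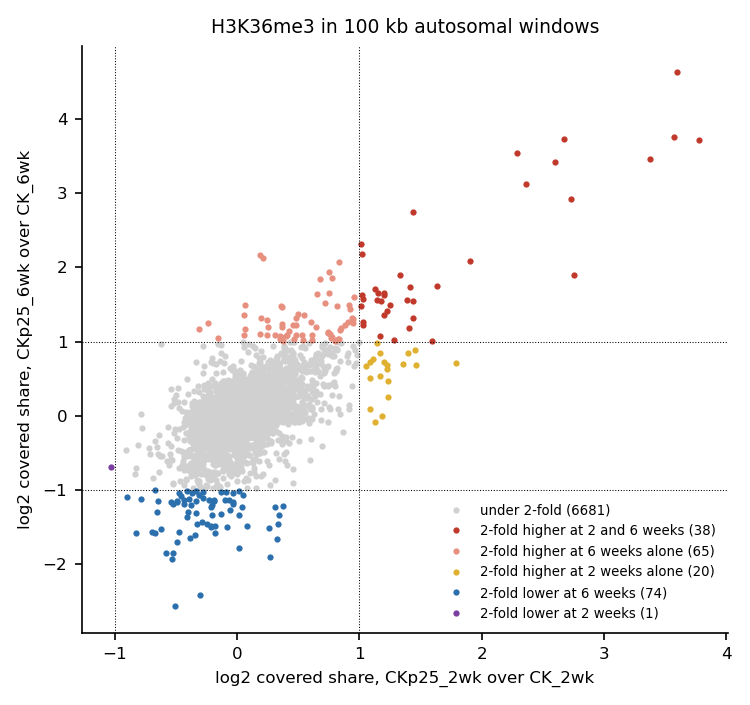
Log2 ratio of H3K36me3 covered share in CKp25 over CK at 2 weeks (horizontal) and at 6 weeks (vertical) in 6879 windows of 100 kb, with dotted lines at 2-fold. The 38 windows past 2-fold upward at both times reach the upper right corner, and the 74 windows lower at 6 weeks lie below the lower line but inside the limits of 2 weeks.

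Windows with less H3K36me3 in CKp25 passed 2-fold at 6 weeks, with 1 exception at 2 weeks. None of the 74 windows lower at 6 weeks passed 2-fold at 2 weeks. On the log2 scale 61 of the 74 were below 0 there, where 3867 of all 6879 windows were. Their median was −0.30, against −0.02 over all windows. Their covered share had a median of 3.61% in CKp25_6wk and 10.4% in CK_6wk, and of 10.2% in CKp25_2wk and 11.9% in CK_2wk. They lay on 17 autosomes at 60 separate places. Since 0 windows were lower at both times, the 5 largest drops at 6 weeks were chosen after their values were seen. These counts depended on the setting. With only peaks of −log10 p of at least 5, 9 windows were lower at 2 weeks and 5 at both times. With summits at least 3 times the background the counts were 13 and 6, and with windows of 50 kb 13 and 4. The other settings tried gave 0 at both times.

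At chr16:16200001-16300000 peaks covered 1.98% in CKp25_6wk and 15.6% in CK_6wk, and 11.4% in CKp25_2wk and 15.4% in CK_2wk. At chr11:56900001-57000000 they covered 1.15% in CKp25_6wk and 9.83% in CK_6wk, and 10.2% in CKp25_2wk and 11.9% in CK_2wk. At chr2:112500001-112600000 they covered 2.39% in CKp25_6wk and 11.2% in CK_6wk, and 9.97% in CKp25_2wk and 13.7% in CK_2wk. These windows were covered in the other 3 lists, and the CKp25_6wk list stood apart. The same held for chr2:12100001-12200000, with 2.26% in CKp25_6wk and 10.5% in CK_6wk, and for chr1:37700001-37800000, with 2.98% in CKp25_6wk and 12.5% in CK_6wk. All 5 windows were chosen for a low CKp25_6wk over CK_6wk ratio. With so little coverage in CKp25_6wk, they reached the mean covered share of 5% through the other lists. That CKp25_6wk stood apart is thus partly set by the choice. After scaling, the ratio of share plus 1% was 0.168 in the first and 0.276 in the last of the 5. The single window lower at 2 weeks was chr15:95300001-95400000, with 4.64% in CKp25_2wk and 9.76% in CK_2wk, and 3.91% in CKp25_6wk and 6.50% in CK_6wk.

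**Figure D4:**
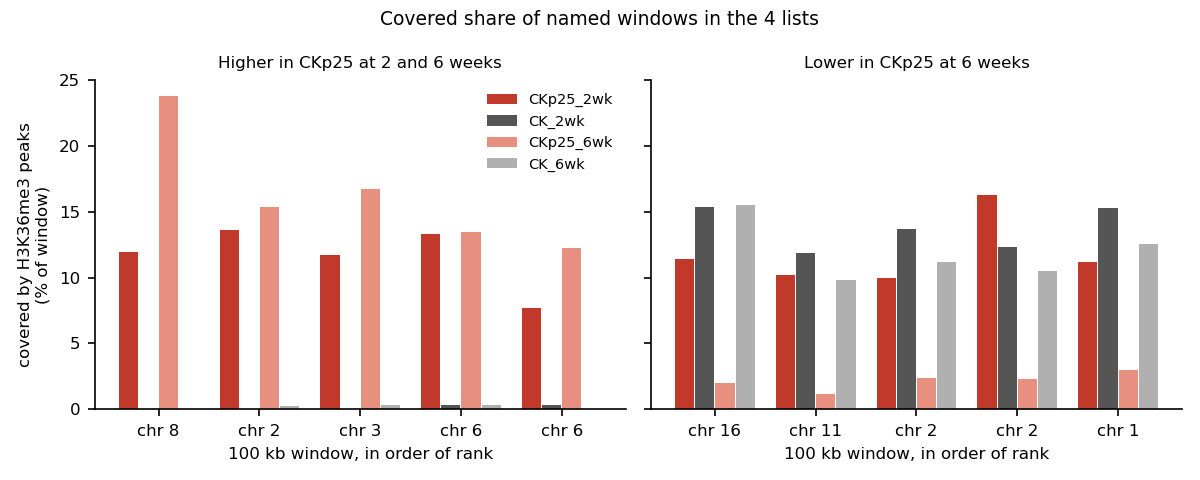
H3K36me3 covered share (% of a 100 kb window) in the 4 lists, for the 5 windows with the largest mean ratio at both times (left) and the 5 windows with the largest drop at 6 weeks (right), each labelled by its chromosome. On the left the CK bars are at or near 0, and on the right the CKp25_6wk bar alone is low. Both forms are partly set by how the windows were chosen.

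Regions present in the lists of 1 genotype alone gave the same picture at a finer scale. The union of the 4 lists, joined over 3 kb, held 32624 regions, of which 16151 had a peak in all 4 lists, 49.5% of the regions and 93.5% of their length. Regions with peaks in both CKp25 lists and neither CK list numbered 1463, and regions with peaks in both CK lists and neither CKp25 list numbered 458. The patterns that cross genotype and time, which neither factor gives, numbered 698 for CKp25_2wk with CK_6wk and 538 for CKp25_6wk with CK_2wk, a mean of 618. With the same number of peaks kept in each list, regions of CKp25 alone numbered 1115 and regions of CK alone 630, and the crossed patterns 627 and 558. Regions of CKp25 alone thus stayed above the crossed patterns, while regions of CK alone, below them in the full lists, did not. Regions of both 2-week lists alone numbered 847 and of both 6-week lists alone 470. Of the regions of CKp25 alone 145 were at least 5 kb long, 9.91%, and of those of CK alone 5 were, 1.09%. The share was 2.01% and 1.86% in the crossed patterns, and 78.1% in regions of all 4 lists.

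The longest regions of CKp25 alone lay partly in the chromosome 8 block described above. The longest, chr8:64446942-64468869, was 21.9 kb long and held 9 peaks in CKp25_2wk and 15 in CKp25_6wk. Within it, no peak of the other 6 marks was listed in any of the 4 groups. Its neighbours chr8:64486269-64503560 and chr8:64427575-64443231 were 17.3 and 15.7 kb long. The region chr8:123263732-123280320, 16.6 kb long on the same chromosome, was covered to 26.6% in CKp25_2wk and 43.2% in CKp25_6wk. There H4K20me1 peaks covered 11.6% in CKp25_2wk and 0% in CK_2wk, and 41.3% in CKp25_6wk and 0% in CK_6wk. In the same region H3K27ac peaks covered 15.7% in CKp25_2wk and 3.41% in CK_2wk, and 23.6% in CKp25_6wk and 2.07% in CK_6wk. The region chr19:29447103-29463193, 16.1 kb long, was covered to 43.7% in CKp25_2wk and 48.0% in CKp25_6wk.

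The longest regions of CK alone were shorter. The longest, chr11:35006584-35013851, was 7.27 kb long and was covered to 16.2% in CK_2wk and 9.18% in CK_6wk. There H3K27ac peaks covered 0% in CKp25_2wk and 16.5% in CK_2wk, and 0% in CKp25_6wk and 10.003% in CK_6wk. In chr1:156527917-156534458, 6.54 kb long, H4K20me1 peaks covered 17.6% in CKp25_2wk and 55.8% in CK_2wk, and 9.48% in CKp25_6wk and 57.6% in CK_6wk. The others were chr18:62167137-62173250, chr18:55075179-55081001 and chr4:102477439-102483066, of 5.63 to 6.11 kb.

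Within a group, H3K36me3 peaks were set against the peaks of the other 6 marks. H4K20me1, a mark of transcribed gene bodies, covered 48.6 to 54.7% of the H3K36me3 bases over the 4 groups, 5.66 to 5.81 times its share of the autosomal span. H3K4me1, found at enhancers and around promoters, covered 13.7 to 15.2% of them, 2.60 to 2.83 times its share. H3K27ac, a mark of active enhancers and promoters, covered 9.30 to 11.1%, 2.24 to 2.40 times its share, and H3K4me3, the promoter mark, 3.60 to 4.76%, 1.15 to 1.29 times its share. H3K27me3, the Polycomb mark, covered 0.0935 to 0.195% of the H3K36me3 bases, 0.0781 to 0.128 times its share of the span. H3K9me3, a heterochromatin mark, covered 0.400 to 0.735%, 0.596 to 0.780 times its share. The order of these marks was the same in all 4 groups by their ranges, which did not overlap. The lists of all 7 marks of a group were called against the same whole cell extract, so they are not independent of each other.

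In the windows called from H3K36me3 the other marks of transcribed chromatin differed in the same direction, by peak lists that share that extract. In the 38 windows higher at both times the median H4K20me1 covered share was 6.25% in CKp25_2wk and 1.11% in CK_2wk, and 12.9% in CKp25_6wk and 1.46% in CK_6wk. The median log2 ratio of H4K20me1 was 0.56 at 2 weeks and 1.32 at 6 weeks, with 13 and 24 of the 38 windows at least 2-fold higher, against 0.916% and 3.15% of all 6879 windows. For H4K20me1, 31 of the 38 windows were above 0 at 2 weeks and 35 at 6 weeks, and the rest stood at 0. No window of the 38 was below 0, where 40.8% and 43.0% of all 6879 windows were. A window without H4K20me1 peaks in CK cannot fall below 0. Median log2 ratios at 2 and 6 weeks were 0.30 and 0.46 for H3K27ac, 0.28 and 0.42 for H3K4me1 and 0.15 and 0.23 for H3K4me3. H3K27me3 gave −0.01 and −0.22, and H3K9me3 gave 0.02 and 0. Between the control lists, H4K20me1 gave a median of 0 in these windows.

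The 74 windows lower at 6 weeks had negative medians for H4K20me1, H3K4me1 and H3K27ac at both times. The median H4K20me1 covered share was 5.82% in CKp25_2wk and 13.4% in CK_2wk, and 2.96% in CKp25_6wk and 13.2% in CK_6wk. The median log2 ratio of H4K20me1 was −0.81 at 2 weeks and −1.09 at 6 weeks, with 28 and 39 of the 74 windows at least 2-fold lower, against 2.35% and 3.34% of all windows. For H3K4me1 the medians were −0.30 and −0.58, for H3K27ac −0.31 and −0.42, and for H3K4me3 0 and −0.23. At chr11:56900001-57000000 H4K20me1 peaks covered 49.9% in CKp25_2wk and 72.6% in CK_2wk, and 37.4% in CKp25_6wk and 77.1% in CK_6wk. At chr2:12100001-12200000, by contrast, none of the other 6 marks covered more than 0.664% in any list.

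**Figure D5:**
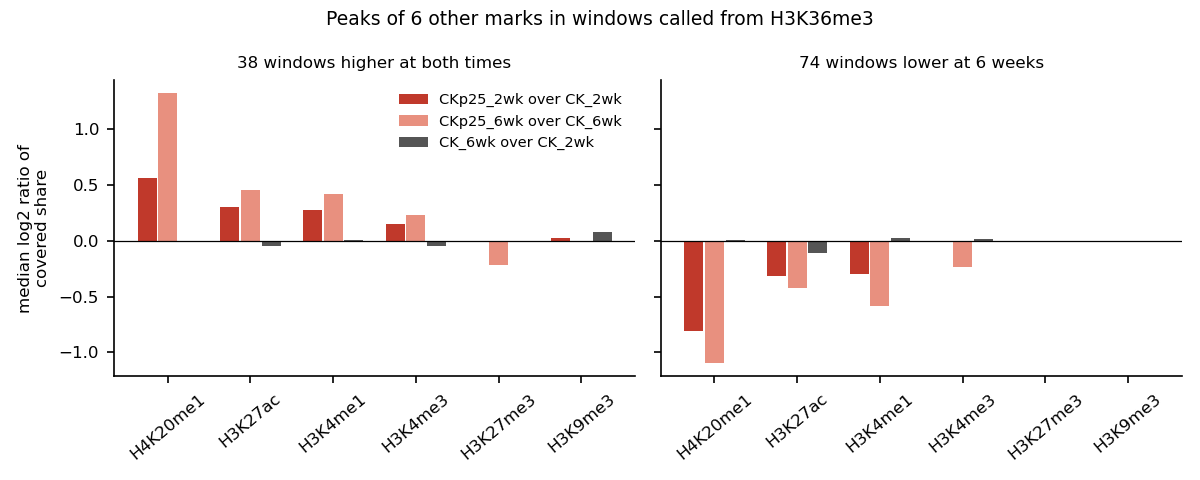
Median log2 ratio of the covered share of 6 other marks in the 38 windows higher in H3K36me3 at both times (left) and in the 74 windows lower at 6 weeks (right), for CKp25 over CK at each time and for CK_6wk over CK_2wk. H4K20me1 has the tallest bars in both panels, and the bars of the control comparison stay between −0.11 and 0.08.

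The RNA of 47 genes that write, remove or read H3K36 methylation, or supply the histone that carries it, was compared in the same groups, and 46 of them were counted highly enough to be tested. Levels are CPM, as mean ± SD of 3 libraries, and adjusted p-values are those of edgeR's quasi-likelihood test over 14457 genes. At 2 weeks 5 of 46 were higher in CKp25, close to the 11.6% of all genes that were, and 1 was lower, where 7.99% of all genes were. At 6 weeks 3 were higher, against 18.1% of all genes, and 7 were lower, against 15.2%. The median log2 change of the list was 0.00 at 2 weeks and −0.07 at 6 weeks, and that of all genes −0.01 and 0.00.

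Setd2, the enzyme that makes nearly all H3K36me3, did not pass the test at either time. It stood at 264, 146 and 168 CPM in the CKp25_2wk libraries and 252, 155 and 158 CPM in the CK_2wk libraries, and at 224, 214 and 149 CPM in CKp25_6wk and 147, 156 and 147 CPM in CK_6wk. The high values of 2 weeks were those of CKp25_2wk_4518 and CK_2wk_4520, and the groups of both times overlapped. Over all genes these libraries gave a chi-square per gene of 5.54 to 8.63 against the others of their group. The remaining pair of each 2-week group gave 2.2 in CKp25_2wk and 1.46 in CK_2wk. Pairs of the 6-week groups gave 3.67 to 5.66, so the 5.54 and 5.84 of CK_2wk_4520 were near the highest of those. The log2 change of Setd2 was 0.03 ± 0.20 (SE, adjusted p = 0.933) at 2 weeks and 0.39 ± 0.21 (SE, adjusted p = 0.167) at 6 weeks, by edgeR. Without CKp25_2wk_4518 and CK_2wk_4520 the value of 6 weeks, 0.38, passed with an adjusted p of 0.0178 in edgeR. Without CKp25_2wk_4518 alone the value of 2 weeks turned to −0.26.

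Of the other methyltransferases, 2 fell at 6 weeks and 1 at 2 weeks, where 15.2% and 7.99% of all genes did. Nsd1, which makes the dimethyl form, fell to 306 ± 15.99 CPM in CKp25_6wk, against 367 ± 7.79 CPM in CK_6wk (log2 change −0.26 ± 0.07 SE, edgeR adjusted p = 0.0110). Ash1l, another dimethylating enzyme, fell to 241 ± 11.5 CPM in CKp25_6wk, against 306 ± 22.1 CPM in CK_6wk (edgeR adjusted p = 0.00519). Smyd2, a lysine methyltransferase with histone and other substrates, fell to 28.8 ± 2.11 CPM in CKp25_2wk, against 38.2 ± 3.12 CPM in CK_2wk (edgeR adjusted p = 0.00769). In these 3 genes no CKp25 library reached the lowest CK library of its time, which is no separate support, since they were named for passing the test. Smyd2 did not pass in edgeR without CKp25_2wk_4518 and CK_2wk_4520, the libraries of high Setd2 (adjusted p = 0.0902). None of the 7 demethylases passed the test at either time, Kdm2a, Kdm2b and Kdm4a to Kdm4d among them. Of all genes 11.6% were higher and 7.99% lower at 2 weeks, and 18.1% and 15.2% at 6 weeks.

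Among elongation factors, Supt6, a histone chaperone that rides with RNA polymerase II, fell to 162 ± 14.6 CPM in CKp25_6wk, against 201 ± 9.12 CPM in CK_6wk (log2 change −0.31 ± 0.08 SE, edgeR adjusted p = 0.00465). Supt16, a subunit of the FACT chaperone, rose to 77.2 ± 3.01 CPM in CKp25_2wk, against 65.2 ± 2.02 CPM in CK_2wk (edgeR adjusted p = 0.0169). That call was lost without CK_2wk_4891, CK_2wk_4893 or CKp25_2wk_4894, with adjusted p-values of up to 0.0899.

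Readers moved in both directions. Of 17 tested, 2 were higher and 0 lower at 2 weeks, where 11.6% and 7.99% of all genes were. At 6 weeks 2 were higher and 3 lower, where 18.1% and 15.2% of all genes were. Msh6, the mismatch repair protein that binds H3K36me3 through its PWWP domain, stood at 39.8, 40.8 and 45.8 CPM in the CKp25_2wk libraries and 22.6, 22.7 and 22.4 CPM in the CK_2wk libraries. It rose by a log2 change of 0.90 ± 0.09 (SE, edgeR adjusted p = 1.5e-06) at 2 weeks, and by 0.32 ± 0.10 (SE, edgeR adjusted p = 0.0167) at 6 weeks, a call lost without CKp25_6wk_4008 (adjusted p = 0.0625). Phf19, a Tudor protein of Polycomb complexes, was read 20, 17 and 26 times in the CKp25_2wk libraries and 3, 1 and 1 times in the CK_2wk libraries, and 9, 13 and 15 times in CKp25_6wk and 3, 1 and 4 times in CK_6wk. Phf19 rose at both times (edgeR adjusted p = 5.55e-05 and 0.00249), with a fitted fold change that rests on these few control reads. Both genes were higher in CKp25 like the cell cycle genes given above, and the part of those cells was not tested.

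Morf4l2, listed here among the readers, fell to 142 ± 8.21 CPM in CKp25_6wk, against 177 ± 3.66 CPM in CK_6wk (edgeR adjusted p = 0.00145). Zmynd11, which reads the mark on histone H3.3, fell to 143 ± 5.64 CPM in CKp25_6wk, against 173 ± 6.15 CPM in CK_6wk (edgeR adjusted p = 0.00823). Mtf2, a Tudor protein of Polycomb complexes like Phf19, fell to 49.1 ± 3.48 CPM in CKp25_6wk, against 58.0 ± 1.97 CPM in CK_6wk (edgeR adjusted p = 0.0448). The Mtf2 call was lost without any 1 of CK_6wk_3936, CK_6wk_3938, CK_6wk_4009, CKp25_6wk_3937, CKp25_6wk_4008 or CK_2wk_4891, with adjusted p-values of up to 0.171. Dnmt3b, the DNA methyltransferase with a PWWP domain, was the member not tested, with 22 reads in all in CKp25_2wk and 12 in CK_2wk, and 25 in CKp25_6wk and 11 in CK_6wk.

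H3f3b, one of the genes for histone H3.3, rose to 119 ± 16.7 CPM in CKp25_2wk, against 96.1 ± 8.86 CPM in CK_2wk (edgeR adjusted p = 0.0340), and to 111 ± 3.95 CPM in CKp25_6wk, against 92.0 ± 4.86 CPM in CK_6wk (edgeR adjusted p = 0.0375). The H3f3b call of 2 weeks was lost without CK_2wk_4893, CKp25_2wk_4890 or CKp25_2wk_4894, and that of 6 weeks without CK_6wk_3936, CK_6wk_3938, CK_6wk_4009, CKp25_6wk_3937, CKp25_6wk_4008 or CKp25_2wk_4894, with adjusted p-values of up to 0.180 and 0.136. Daxx, a chaperone of H3.3, rose to 26.8 ± 2.53 CPM in CKp25_2wk, against 16.9 ± 1.40 CPM in CK_2wk (edgeR adjusted p = 0.00314). Atrx, its partner, fell to 276 ± 6.98 CPM in CKp25_6wk, against 324 ± 24.7 CPM in CK_6wk (edgeR adjusted p = 0.0297). The Atrx call was lost without any 1 of CK_6wk_3938, CK_6wk_4009, CKp25_6wk_3937, CKp25_6wk_3940 or CKp25_6wk_4008, with adjusted p-values of up to 0.131. Without CK_2wk_4893, or without CKp25_2wk_4894, 3 in place of 5 members were called higher at 2 weeks. Without CK_2wk_4520, CK_6wk_3938 or CK_6wk_4009, 2 in place of 1 were called lower at 2 weeks, and without CKp25_6wk_4008, 1 in place of 3 was called higher at 6 weeks.

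The difference of the genotype effect between times passed edgeR's test, adjusted over all genes, in 0 of 46 members, where 0.553% of all genes passed. Of the members, 6 had an unadjusted p under 0.05, and the lowest adjusted p was 0.0568, that of Msh6. That Daxx was called at 2 weeks and not at 6 weeks is therefore not shown to be a difference between times (edgeR adjusted p = 0.119).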

How the data were processed

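Peak lists of 7 histone marks and an RNA table from the hippocampus of CKp25 and CK mice were used, with groups taken from the labels. The authors deposited 1 list per mark and group, each peak with its fold enrichment (a ratio over whole cell extract) and the −log10 of its p-value. RNA was deposited as raw read counts per gene in 12 libraries. The submitters' processing notes name MACS2, Bowtie, Picard and HTSeq 0.6.1, and the builds mm9 and NCBIM37. The RNA kit keeps strand, per the labels, but the strand setting of the authors' counting is not stated. Reads behind each list are not stated either. Deposited fold and p described, ranked or filtered peaks within a list. They also gave the summit fragments and the lowest background. That background, and the peaks left by each filter, were compared between lists.

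Covered length, clusters, windows and regions were computed from the intervals in Python 3.11.15 (numpy 2.4.6, pandas 2.3.3, scipy 1.17.1) on 19 autosomes, and the functions were checked on simulated intervals. Spans run from the first to the last H3K36me3 peak of any list. Counts were fitted in R 4.3.3 with edgeR 4.0.16 on all 12 libraries, with TMM factors, filterByExpr, 4 group means and Benjamini-Hochberg adjustment, calls being under 0.05, and the test was checked on simulated data. DESeq2 1.42.0 was an alternative. Nothing in the labels makes each library a separate animal, and the p-values then reflect only the spread of these libraries, possibly technical. No library repeated another (chi-square per gene within groups, 1.46 to 8.63). The gene table named 32919 of 37991 gene IDs. The test of the difference between times was added after the data were seen.

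Members and lists were chosen with earlier results of these data known. Named were the 3 longest clusters per list, the 5 windows past 2-fold at both times with the largest mean ratio in each direction, the highest and lowest covered autosome, the 5 longest regions of CKp25 alone and of CK alone, Setd2 and every called member. The strongest peaks, the single window lower at 2 weeks and the cell type markers were named outside that rule, after values were seen.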

Additional observations from a re-analysis of the deposited data

How the results depend on the processing

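Values are ratios of CKp25_2wk over CK_2wk, CKp25_6wk over CK_6wk and CK_6wk over CK_2wk, in that order. With only peaks of −log10 p of at least 5, peak number gave 1.02, 1.08 and 1.0045, covered length 1.06, 1.08 and 0.924, and median width 1.06, 0.995 (turned) and 0.940. Then 9 windows were lower at 2 weeks, 5 were lower at both times and 1 differed by time in both genotypes. The mean share of H3K36me3 bases was 3.32% in H3K4me3, 7.21% in H3K27ac, 10.7% in H3K4me1, 48.3% in H4K20me1, 0.0589% in H3K27me3 and 0.389% in H3K9me3. With folds of at least 3, peak number turned to 0.943 at 2 weeks and 0.910 between controls, with covered length at 1.03 and 0.883. With summits at least 3 times the background, chosen after seeing the data, peak number gave 0.921 (turned), 1.12 and 0.917 (turned), and covered length 1.02, 1.09 and 0.895. Windows were then 33 higher and 13 lower at 2 weeks, 6 lower at both times, 10 different between controls and 4 by time in both genotypes. With equal peak numbers, covered length gave 1.06, 1.05 and 0.928, width 1.09, 1.07 and 0.960, and cluster number 1.03, 1.01 and 0.986, with 4 windows lower at 2 weeks, 1 different between controls and 22 higher at both times. Cluster number gave 1.07 at 2 weeks and 1.01 (turned) between controls at a gap of 1000 bases, and 1.03, 1.01 and 1.02 (turned) at 10000. At 10000, regions numbered 520 for CKp25 alone, 156 for CK alone, 244 for 2 weeks, 158 for 6 weeks, and 218 and 168 crossed.

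Windows of 50 kb gave 193 higher and 13 lower at 2 weeks, 288 and 212 at 6 weeks, 192 lower in CKp25_6wk over CKp25_2wk, 62 between controls, 121 higher and 4 lower at both times, and 7 by time in both genotypes. Windows of 500 kb gave 0 and 0 at 2 weeks, 2 and 5 at 6 weeks, 3 lower in CKp25 over time, 0 between controls and 0 higher at both times. With 5% added, the counts were 17 and 0, 40 and 19, 11, 0 and 13 in that order, and with a mean share of at least 10%, 22 and 0, 36 and 30, 23, 0 and 15. Without scaling, 0 were lower at 2 weeks. The cause of these changes was not tested.

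For RNA, DESeq2 called 1 member higher at 6 weeks, and without a filter 2 were lower at 2 weeks. With 1 library left out, 3 to 6 were higher and 1 to 2 lower at 2 weeks, and 1 to 3 higher and 5 to 8 lower at 6 weeks. The Setd2 value of 2 weeks ranged from −0.26 to 0.31 and turned to −0.26 without CKp25_2wk_4518, −0.09 without CK_2wk_4891 and −0.08 without CK_2wk_4893. DESeq2 and the fit without a filter also lost Supt16 at 2 weeks and Mtf2 and Msh6 at 6 weeks, DESeq2 lost H3f3b at 6 weeks, and Setd2 at 6 weeks passed without the filter (edgeR adjusted p = 0.000186). Of the summary values under alternatives, 107 held, 88 moved and 7 turned. No paired analysis was possible because each group had 1 peak list and no RNA library number occurs in more than 1 group, nor do the labels tie a number to a litter or day. The lists carry no depth, so a missing peak says only that none was listed.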
